A study of Mus musculus with 72 samples.

Results

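The genes described here encode the proteins of the mitochondrial ribosome. They were chosen by name, as every gene on the array whose symbol starts with *Mrpl* or *Mrps* apart from 2 that are not reported here, which gave 74 of the 16593 genes measured, 46 with *Mrpl* symbols (large subunit) and 28 with *Mrps* symbols (small subunit). Their mRNA was followed in liver of *Scp2* KO and WT mice, to ask whether level, 24 h rhythm and phase differ between the genotypes. The KO mice carry a deletion of the entire *Scp2* locus, which codes for the lipid carriers SCP2 and SCPx, and were backcrossed into C57Bl/6. The WT mice are C57Bl/6J controls from the same supplier, not described as littermates. All were males of 10 to 12 weeks in a light-dark cycle with 12 h of each, fed only at night during the last 4 days. Zeitgeber time (ZT) counts the hours from lights on at ZT0, with lights off at ZT12. Each genotype has 36 livers, 3 independent animals at each of 12 times from ZT0 to ZT22, and each liver was hybridized to 1 array.

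Mitochondrial ribosomes translate the few mRNAs transcribed from mitochondrial DNA, which code for core subunits of the respiratory chain and of ATP synthase. All their proteins are encoded in the nucleus, made on cytosolic ribosomes and imported, so that a full set of these genes has to be expressed for each mitochondrial ribosome. The symbols follow an old naming. In the structure of the mammalian particle the products of *Mrps30* and *Mrps18a* lie in the large subunit, and the product of *Mrps36* is now known as a component of the 2-oxoglutarate dehydrogenase complex. The 3 genes are counted below by symbol.

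The values are log2 of the normalized signal of 1 probe per gene, so that a difference of 1 is a doubling, and levels of different genes cannot be set against each other. The median signal of an array before normalization lay between 95.5 and 114 in KO and between 96.1 and 114 in WT. The number of arrays limits the precision, and the p-values measure the spread between these animals. *Scp2* itself averaged 10.29 in KO against 11.75 in WT on the probe that stood for the gene, with a difference of -1.47. Another 2 of its 4 probes averaged at most 5.998 in KO against at least 12.23 in WT, and the fourth was near background in both (5.74 in KO and 5.80 in WT). One array, of a WT liver at ZT12, stood apart from the rest, with a median correlation over genes of 0.964 with the others (the next lowest had 0.982), and the mean of the 74 genes was 0.19 below its average there. The arrays of each genotype carry 3 set names (KO4, KO5 and KO6 in KO, and WT6, WT9 and WT10 in WT) with 12 arrays each, 1 array per time. The livers are described as collected over 3 consecutive days in one place and within 24 h in another, and whether a set is a day is not given. Of the cell type markers, 3 of 8 hepatocyte genes, 3 of 7 sinusoidal endothelial genes and 1 of 5 stellate cell genes were lower in KO, and none of the Kupffer cell, cholangiocyte or lymphocyte genes passed the test. The hepatocyte list averaged from 10.29 to 10.51 in KO livers and from 10.35 to 10.65 in WT livers, and the endothelial list from 7.20 to 7.57 in KO against 7.41 to 7.90 in WT. Their part in the results was not tested. In whole liver, fewer cells of a type and less RNA per cell cannot be told apart. Only 3 of the 74 genes (*Mrpl19*, *Mrpl32* and *Mrps14*) had mean signals in the dimmest 25% of the array.

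More mitochondrial ribosomal protein genes were higher in KO than lower. Over all times together, 15 of the 74 were higher in KO and 2 were lower (limma, adjusted p under 0.05), where 5.93% of all genes were higher and 6.38% lower. The shift was small. The median difference, KO minus WT, was 0.023 on the log2 scale against -0.00027 over all genes, and it ran from -0.12 for *Mrpl47* to 0.27 for *Mrpl9*. On the probes that stood for them, the other 57 genes did not pass the test. On another probe *Mrpl33* was higher in KO by 0.10 (limma adjusted p over all probes 0.0072). *Mrpl48* was lower on another of its probes, with a difference of -0.088 (limma adjusted p over all probes 0.016). With the dimmest 25% of genes left out 71 members remained. Their counts were the same, 15 and 2, where 8.24% of the remaining genes were higher and 8.92% lower. A difference above 0 was found for 57 of the 74 genes, compared with 49.5% of all genes. Mean values were higher in KO at each of the 12 times for 7 members (*Mrpl9*, *Mrpl14*, *Mrpl50*, *Mrpl54*, *Mrps7*, *Mrps18a* and *Mrps30*), a pattern shown by 2.99% of all genes, and for none were they lower at each time (2.68% of all genes). When the arrays were scaled by their median in place of quantile normalization, 3 members were higher and 0 lower. Of all 16593 genes 611 were then higher and 829 lower, so that the members' count of higher genes was near the share over the array. The median difference was 0.023, and of the genes past the test *Mrpl9*, *Mrps18a* and *Mrps30* remained.

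**Figure D1:**
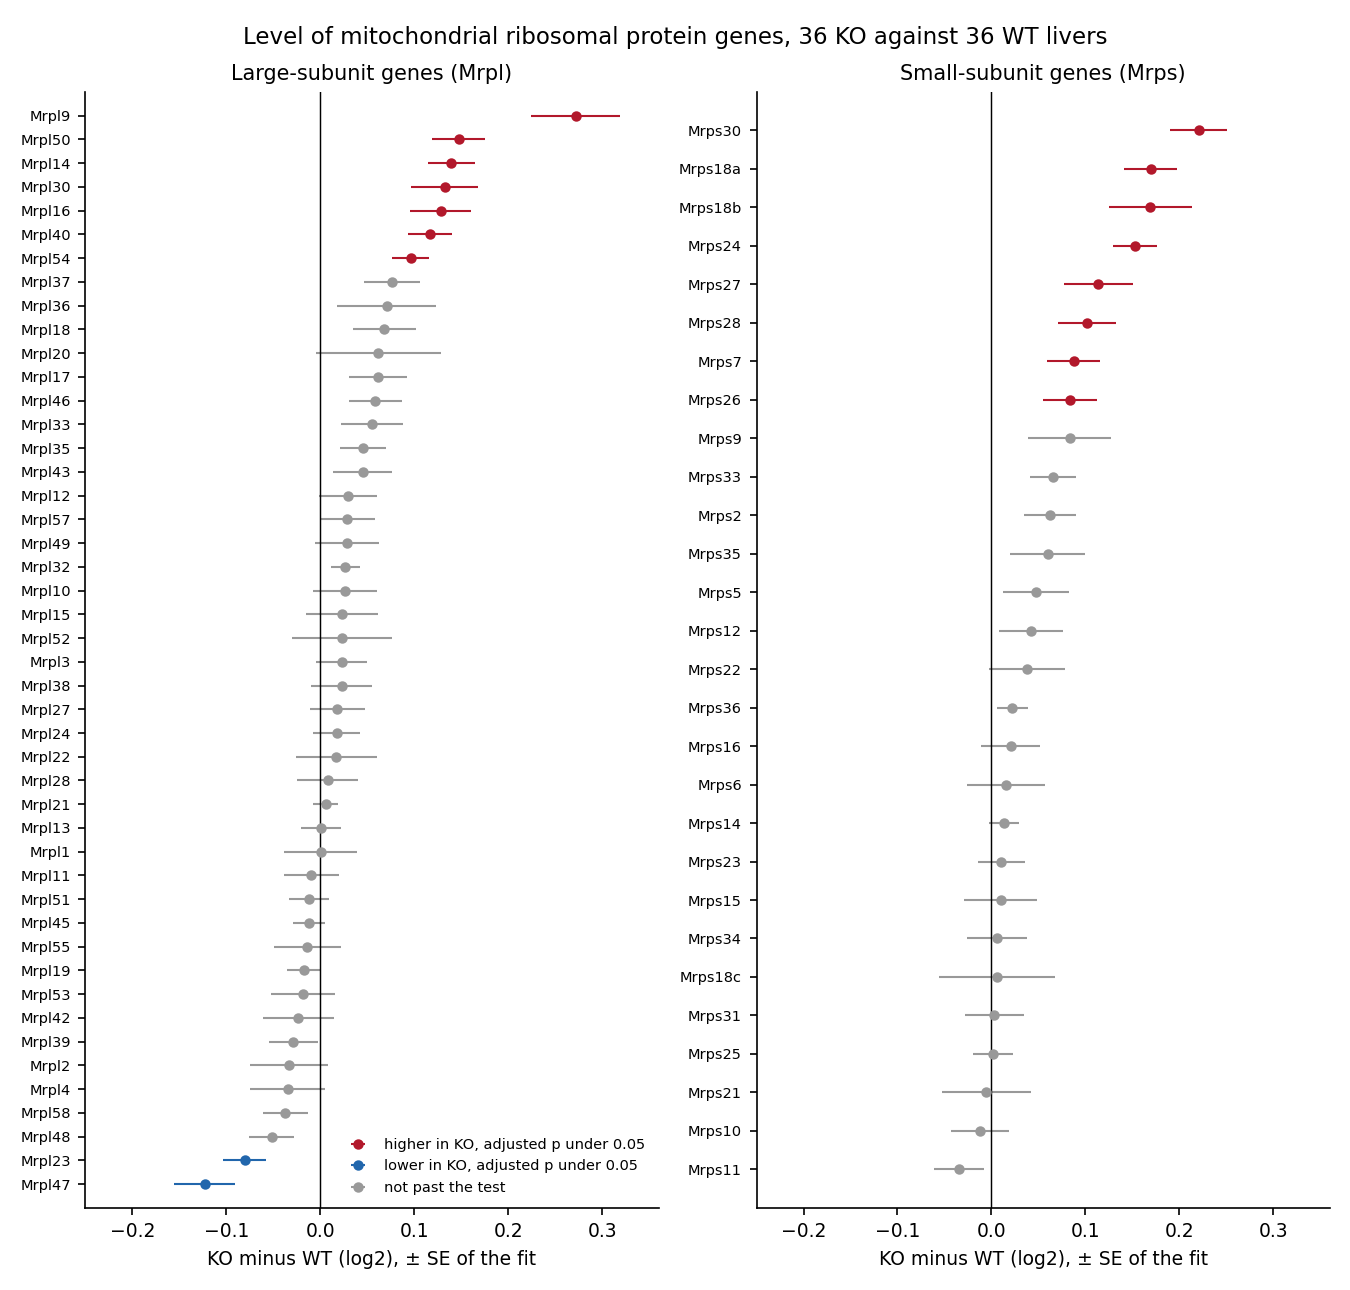
Difference in level between 36 KO and 36 WT livers for each of the 74 genes (x axis, KO minus WT on the log2 scale, with the SE of the limma fit as bars), large-subunit genes on the left and small-subunit genes on the right, each ordered by its difference. Red points are the 15 genes higher in KO, blue points the 2 lower in KO, grey points those not past the test, and most points lie to the right of 0.

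Among the 46 large-subunit genes 7 were higher and 2 lower in KO. The largest difference was that of *Mrpl9*, whose product is a counterpart of a bacterial ribosomal protein. Its values ran from 7.99 to 8.52 with a median of 8.24 in KO livers, and from 7.60 to 8.49 with a median of 7.91 in WT livers. The ranges overlap, and the WT livers spread more widely. It averaged 8.26 ± 0.15 in KO and 7.99 ± 0.25 in WT (SD, n = 36 each), a difference of 0.27 (SE 0.048, limma adjusted p = 7.46e-06) or 1.21-fold. This spread follows the sets. The 3 KO sets averaged 8.24, 8.24 and 8.31, whereas the WT sets averaged 7.83 (WT6), 8.25 (WT9) and 7.88 (WT10). Set WT9 thus lay at the level of the KO sets, and it held the highest of the 3 WT values at 11 of the 12 times. The difference was between 0.20 and 0.40 when each set was left out in turn or another setting was used, and stayed past the test in all 17 alternatives. One of these, the threshold of 0.1, cannot lose a call. With sets as a random block, 1 correlation was shared by all genes (0.0044). It does not account for the spread of *Mrpl9* between sets, and the p-values of this gene do not measure that spread.

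*Mrpl50*, coding for a protein found in the mitochondrial but not in the bacterial ribosome, ranged from 9.41 to 9.91 (median 9.66) in KO and from 9.27 to 9.73 (median 9.51) in WT. Its difference was 0.15 (SE 0.028, adjusted p = 4.11e-05). *Mrpl14*, which encodes a counterpart of a bacterial protein, was higher in KO by 0.14 (SE 0.025, adjusted p = 9.70e-06). *Mrpl16*, also with a bacterial counterpart, was higher by 0.13 (SE 0.033, adjusted p = 0.0030), a call that was lost without set KO4. *Mrpl40* ranged from 8.23 to 8.64 in KO and from 8.04 to 8.55 in WT, with a difference of 0.12 (SE 0.023, adjusted p = 8.45e-05). For these genes the groups overlap array by array, but the means of the 3 KO sets were all above those of the 3 WT sets. *Mrpl30* was higher in KO by 0.13 (SE 0.036, adjusted p = 0.0053), not past the test without set KO6, and *Mrpl54* by 0.096 (SE 0.020, adjusted p = 0.00018). The genes that fell in KO were *Mrpl47* and *Mrpl23*, of which *Mrpl23* codes for a protein at the rim of the exit tunnel. *Mrpl47* ranged from 7.60 to 8.05 (median 7.82) in KO and from 7.28 to 8.31 (median 7.93) in WT, with a difference of -0.12 (SE 0.033, adjusted p = 0.0044). *Mrpl23* averaged 9.58 ± 0.098 in KO and 9.66 ± 0.10 in WT (SD, n = 36 each), a difference of -0.080 (SE 0.023, adjusted p = 0.0099). Both were lower in KO at 11 of the 12 times, and neither passed the test when set KO6 was left out (nor *Mrpl23* without set WT6).

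Among the 28 small-subunit genes 8 were higher in KO and none was lower (0 also at an unadjusted p under 0.05), and 25 had a difference above 0. *Mrps30* ranged from 8.88 to 9.40 with a median of 9.18 in KO, and from 8.68 to 9.23 with a median of 8.95 in WT. It averaged 9.17 ± 0.13 in KO against 8.95 ± 0.13 in WT (SD, n = 36 each), a difference of 0.22 (SE 0.030, limma adjusted p = 1.91e-08) or 1.17-fold, and here the sets did not overlap, with means of 9.14, 9.16 and 9.21 in KO and 8.88, 8.99 and 8.97 in WT. *Mrps24*, which encodes a counterpart of a bacterial protein near the mRNA entry, ranged from 10.99 to 11.34 (median 11.15) in KO and from 10.80 to 11.26 (median 11.004) in WT, a difference of 0.15 (SE 0.023, adjusted p = 3.38e-07). *Mrps18a* and *Mrps18b* come from a family of 3 paralogous genes. *Mrps18a* was higher in KO by 0.17 (SE 0.028, adjusted p = 2.98e-06) and *Mrps18b* by 0.17 (SE 0.044, adjusted p = 0.0038, not past the test without set KO6 or set WT9), while the third, *Mrps18c*, differed by 0.0057 and did not pass the test. The remaining 4 (*Mrps7*, *Mrps26*, *Mrps27* and *Mrps28*) differed by 0.084 to 0.11, and each of these calls was lost or reversed under 4 to 8 of the 17 alternatives, among them leaving out 1 of at least 2 of the 6 sets. *Mrps26* has 2 probes, and they disagree. The brighter one gave 8.01 in KO and 7.93 in WT, a difference of 0.084, and the dimmer one 6.35 in KO and 6.53 in WT, a difference of -0.18 (adjusted p = 2.4e-07 over all probes), so that the direction of this gene depends on the probe.

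**Figure D2:**
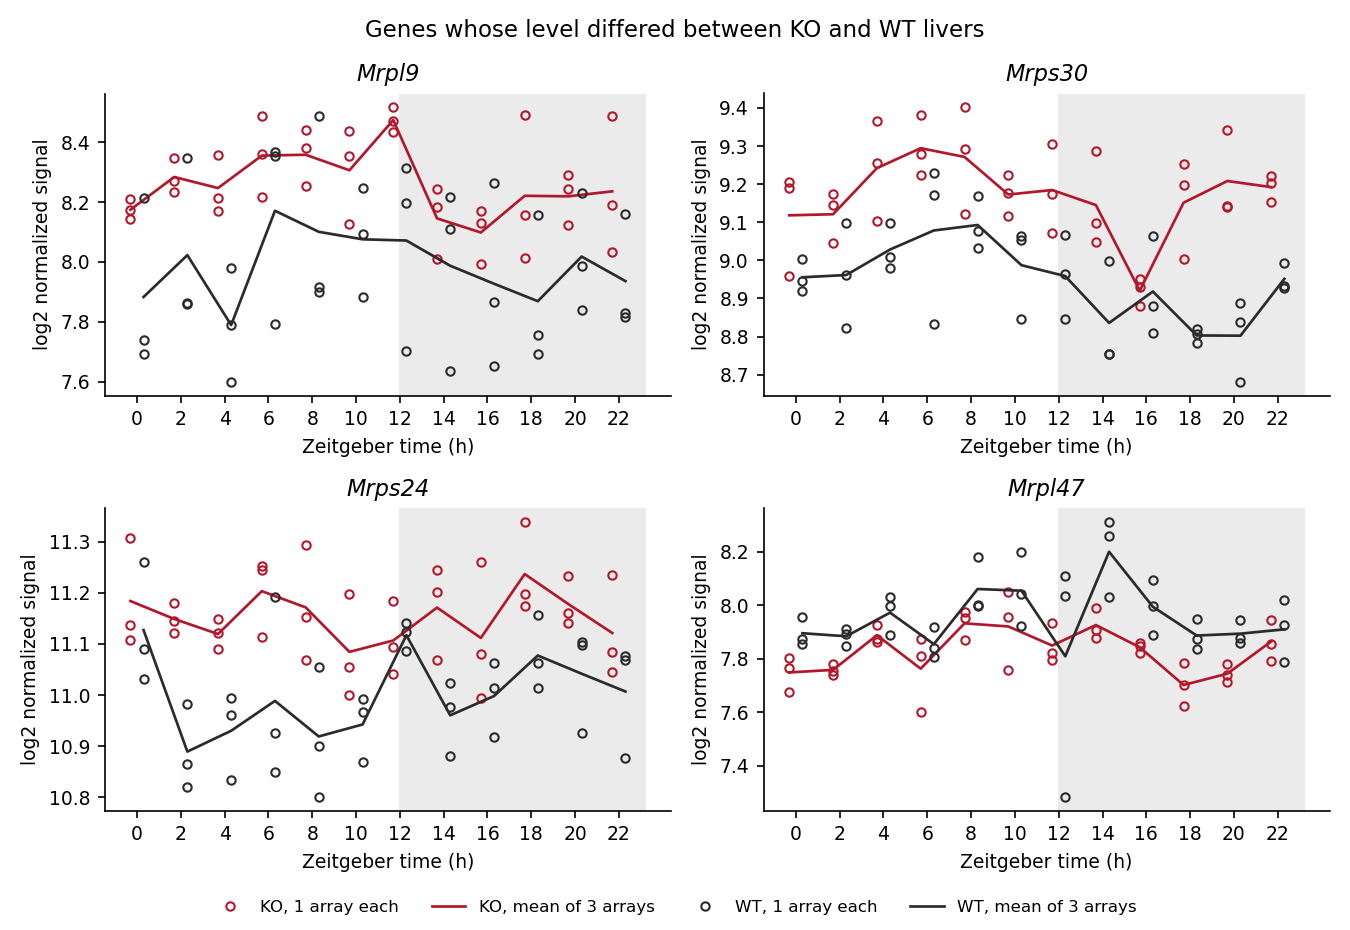
Log2 normalized signal (y axis) of *Mrpl9*, *Mrps30*, *Mrps24* and *Mrpl47* against Zeitgeber time in h (x axis, lights off shaded), with 1 circle per liver and lines through the means of 3 livers, KO in red and WT in black. The KO line lies above the WT line at all 12 times for *Mrpl9* and *Mrps30*, and the WT circles of *Mrpl9* spread more widely than the KO circles.

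For 16 of the 74 genes the means of the 3 KO sets were all above those of the 3 WT sets, where 10.2% of all genes have this order, and for 1, *Mrpl47*, they were all below (10.5% of all genes). Of the 17 genes past the level test, the sets did not overlap for 14, a share like that of all genes past the test (1748 of 2043, 85.6%). The exceptions were *Mrpl9*, *Mrpl23* and *Mrpl30*. The 74 genes lie on 17 chromosomes. Chromosome 4 carries *Scp2* and 4 members. Within 20 Mb of *Scp2* lie *Mrpl37* and *Mrps15*. *Mrpl37*, 15 measured genes away, averaged 9.05 in KO and 8.97 in WT (difference 0.077, limma adjusted p = 0.086). *Mrps15*, 183 measured genes away, averaged 6.71 in KO and 6.70 in WT (adjusted p = 0.94). Neither passed the test. Farther away lie *Mrpl50*, at 207 measured genes, and *Mrpl20*, at 535. *Mrpl50* was higher in KO, as given above (difference 0.15, adjusted p = 4.11e-05). *Mrpl20* did not pass the test (difference 0.062, adjusted p = 0.71).

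The sequences at the start of these genes were looked at for short motifs in common. A promoter of 300 bases (250 before and 50 after the start, RefSeq, GRCm38.p6) was found for 65 of the 74 genes, and 8 short motifs were searched on both strands. Motifs of factors known to drive nuclear genes for mitochondrial proteins came first. The motif of ETS factors such as GABP (CCGGAAG) was in 25 of the 65 promoters (38.5%), compared with 9.08% of all 27025 mouse promoters and 12.7% of those of genes on the array. The core motif of NRF1 (GCGCA, any base, then GCGC) was in 12 (18.5%, against 4.68% of all promoters and 7.19% of those of genes on the array), and that of YY1 (AANATGGCG) in 11 (16.9%, against 2.51% of all and 3.61% on the array). At least 1 of the 3 was in 40 promoters (61.5%, against 14.6% of all and 20.8% on the array), and matches of these 3 motifs overlapped each other in none. Motifs bound by clock factors were searched as well. The E-box (CACGTG) was in 5 promoters (7.69%, against 7.09% of all and 8.31% on the array). The half-site of the ROR element (AGGTCA) was in 11 (16.9%, against 16.2% of all and 13.9% on the array). The D-box (TTANNTAA) was in 1 (1.54%, against 6.16% of all and 5.37% on the array). The SP1 box (GGGCGG) was in 32 (49.2%, against 35.6% of all promoters and 49.8% of those of genes on the array) and the CCAAT box in 25 (38.5%, against 37.8%). Of the 13 genes higher in KO that have a promoter here, 4 held the ETS motif, 4 that of NRF1 and 4 that of YY1, and of the 20 rhythmic genes described below 8, 3 and 4 held them. The E-box, the ROR half-site and the D-box were in 2, 6 and 1 of these 20, and in 0, 1 and 0 of the 13. Whether these counts differ from the shares over all promoters was not tested. A match is only a match of letters. The promoters of the 2 genes with the largest differences are given 5′ to 3′ on the strand of the gene, with every match of the 8 motifs in capitals. That of *Mrpl9* (chr3:94443086-94443385, plus strand) holds the NRF1 core from position -28, counted from the start, and that of *Mrps30* (chr13:118387203-118387502, minus strand) the YY1 motif from position 16, within the transcript, and on the opposite strand the ROR half-site from -14 and the CCAAT box from -120, -56 and 35.
Mrpl9: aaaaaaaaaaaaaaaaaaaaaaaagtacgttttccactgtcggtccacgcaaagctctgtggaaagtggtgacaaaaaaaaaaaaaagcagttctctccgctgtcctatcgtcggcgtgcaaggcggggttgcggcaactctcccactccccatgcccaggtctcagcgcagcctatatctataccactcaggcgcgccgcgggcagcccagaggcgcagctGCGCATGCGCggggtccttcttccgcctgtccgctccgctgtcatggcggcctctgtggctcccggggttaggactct
Mrps30: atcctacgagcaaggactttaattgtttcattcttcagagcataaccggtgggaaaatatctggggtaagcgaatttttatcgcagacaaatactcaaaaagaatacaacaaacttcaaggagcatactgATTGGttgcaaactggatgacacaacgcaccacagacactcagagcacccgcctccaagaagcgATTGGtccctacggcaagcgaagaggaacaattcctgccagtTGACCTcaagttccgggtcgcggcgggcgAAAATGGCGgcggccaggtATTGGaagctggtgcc

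At single times few differences passed the test, with 3 livers against 3. *Mrps30* was past it at ZT18, with 9.003, 9.20 and 9.25 in KO against 8.78, 8.81 and 8.82 in WT (difference 0.35, SE 0.088, limma adjusted p = 0.033), and at ZT20, with 9.14, 9.14 and 9.34 in KO against 8.68, 8.84 and 8.89 in WT (difference 0.41, SE 0.088, adjusted p = 0.0053). The groups do not overlap at either time. At these times 0.862% and 0.988% of all genes passed. At ZT12, where 1.80% of all genes passed, *Mrpl40* (difference 0.34, adjusted p = 0.014) and *Mrpl30* (difference 0.44, adjusted p = 0.043) were past it. *Mrpl30* had 9.42, 9.54 and 9.59 in KO against 8.49, 9.25 and 9.51 in WT, and the value of 8.49 comes from the array that stood apart. Without that array the difference of *Mrpl30* at ZT12 was 0.14 (adjusted p = 0.71), *Mrpl40* was no longer past the test there, the calls of *Mrps30* remained, and *Mrpl14* (difference 0.32) and *Mrpl47* (difference -0.27) passed at ZT14. Neither passed there with all arrays. At the times without a call among the members, the share of all genes past the test was 0.814% at ZT0, 0.796% at ZT2, 0.783% at ZT4, 0.675% at ZT6, 0.910% at ZT8, 0.573% at ZT10, 0.657% at ZT14, 0.940% at ZT16 and 0.560% at ZT22.

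The median difference of the family was above 0 at 11 of the 12 times, from -0.0063 at ZT16 to 0.081 at ZT8. At ZT6 and ZT8 it was 0.074 and 0.081, with 57 and 58 of the 74 genes above 0, and at ZT16 34 were. The mean deviation of the 74 genes, each from its own average over all arrays, gives 1 value per liver. At ZT6 it was 0.0066, 0.043 and 0.056 in KO against -0.068, -0.036 and -0.017 in WT, and at ZT8 -0.0054, 0.014 and 0.12 in KO against -0.054, -0.039 and -0.030 in WT. The livers do not overlap at these times, nor at ZT2, ZT4, ZT18 and ZT22, where the gaps are narrower, and at the other 6 times they do. At ZT2 the lowest KO liver had 0.0141 and the highest WT liver 0.0119, and at ZT22 0.0195 and 0.0181. How often other sets of genes separate in this way was not counted, and the mean includes the genes past the level test. Over all times the mean deviation averaged 0.020 ± 0.031 in KO and -0.020 ± 0.042 in WT (SD, n = 36 each), with ranges from -0.035 to 0.12 in KO and from -0.19 to 0.050 in WT that overlap. The lowest mean of 3 livers was at ZT12, -0.021 in KO and -0.084 in WT. Without the array that stood apart the WT mean at ZT12 was -0.029, above those at ZT6 (-0.040), ZT8 (-0.041) and ZT10 (-0.038).

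**Figure D3:**
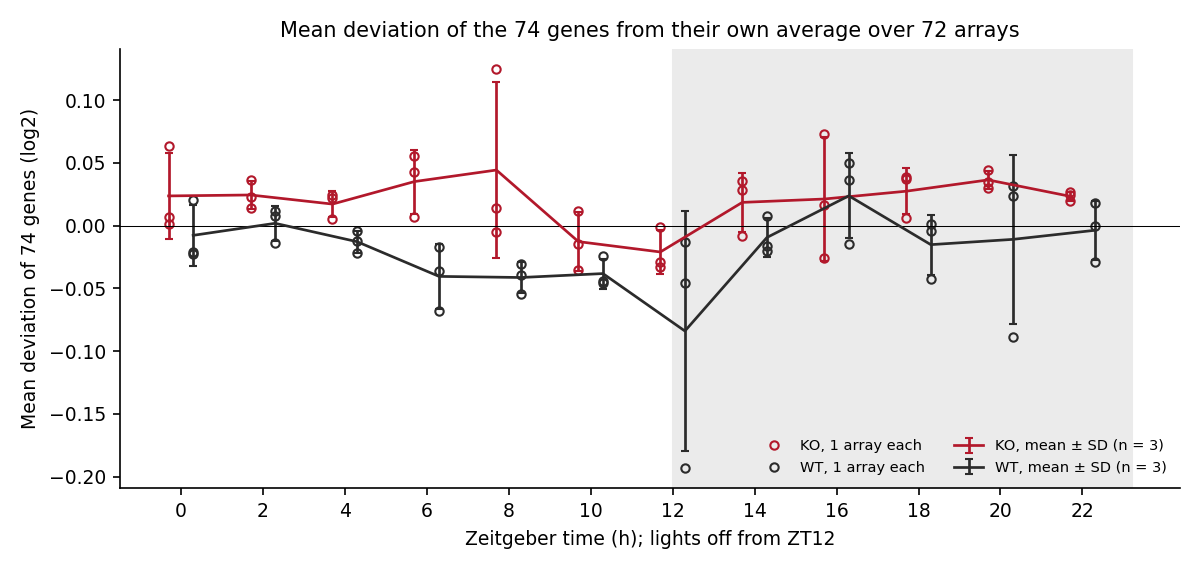
Mean deviation of the 74 genes from their own average over 72 arrays (y axis, log2) against Zeitgeber time in h (x axis, lights off shaded), with 1 circle per liver and lines for the mean ± SD of 3 livers, KO in red and WT in black. The KO line is above the WT line except at ZT16, and the lowest circle, at -0.19, is the WT array at ZT12 that stood apart.

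Among other genes of mitochondrial translation, too, more were higher in KO than lower. Lists of 69 genes in 5 groups held 16 that were higher in KO and none that was lower (limma), with 51 differences above 0. At an unadjusted p under 0.05, 1 was lower. Over all genes 5.93% were higher, 6.38% were lower and 49.5% had a difference above 0. Of the 4 mitochondrial ribosomal proteins with other symbols *Dap3*, coding for a GTP-binding protein of the small subunit, was higher (9.82 in KO and 9.69 in WT, difference 0.13, adjusted p = 6.03e-05). Of 14 translation factors 2 were higher, *Gfm2*, whose product recycles the ribosome after termination (7.93 ± 0.11 in KO and 7.65 ± 0.20 in WT, SD, n = 36 each, difference 0.28, adjusted p = 6.24e-09), and the release factor gene *Mtrf1* (difference 0.085, adjusted p = 0.048). Of 17 genes for mitochondrial tRNA synthetases and the amidotransferase that completes glutaminyl-tRNA, 6 were higher. The largest differences were those of the amidotransferase subunit gene *Qrsl1* (7.62 in KO and 7.38 in WT, difference 0.23, adjusted p = 2.64e-07), of *Ears2*, the glutamyl-tRNA synthetase that acts before it (difference 0.16, adjusted p = 9.93e-04), and of *Rars2*, the arginyl-tRNA synthetase (difference 0.15, adjusted p = 7.52e-06). Of 18 assembly and rRNA factors 5 were higher, among them *Mterf4* (0.17, adjusted p = 0.013), which targets an RNA methyltransferase to the ribosome, *Tfb1m* (0.14, adjusted p = 2.00e-05), which dimethylates the small rRNA, and *Mpv17l2* (0.12, adjusted p = 0.011). Of 16 genes of mitochondrial DNA expression and its regulators 2 were higher, *Tefm*, the transcription elongation factor (0.17, adjusted p = 1.50e-04), and *Ssbp1*, the single-stranded DNA binding protein (0.16, adjusted p = 0.019), while 7 of the 16 had a difference above 0 and the median was -0.0056. With median scaling 10 of the 69 were higher, where 611 of all 16593 genes were.

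Of 61 cytosolic ribosomal protein genes 0 were higher in KO and 10 were lower (limma), with a median difference of -0.027. The largest were *Rpl23a* (10.18 in KO and 10.46 in WT, difference -0.29, adjusted p = 7.35e-11), *Rps27* (difference -0.25, adjusted p = 2.11e-07) and *Rpl23* (difference -0.22, adjusted p = 0.019). Of 77 nuclear genes for subunits of oxidative phosphorylation 4 were higher and 7 lower, with a median of -0.013. They include *Ndufb3*, an accessory subunit of complex I (9.67 in KO and 9.36 in WT, difference 0.31, adjusted p = 3.21e-11), *Cyc1*, coding for cytochrome c1 (difference 0.13, adjusted p = 0.0083), and, among those that fell, *Atp5g1*, coding for the c subunit of ATP synthase (11.10 in KO and 11.34 in WT, difference -0.24, adjusted p = 3.27e-06). As a background, 5.93% of all genes were higher and 6.38% lower, or 8.24% and 8.92% with dim genes left out. The counts for oxidative phosphorylation were near these shares. The counts of the lists are set side by side, and the difference between the lists was not tested.

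A 24 h rhythm (F-test of a fitted cosine, adjusted p under 0.05) was found for 13 of the 74 genes in KO, where 13.7% of all genes were rhythmic, and for 19 in WT, where 15.8% were. It was found in both genotypes for 9 (9.43% of all genes), in KO alone for 4 (4.3%), in WT alone for 10 (6.4%), and in at least 1 for 23 (20.1% of all genes). The other 51 had none that passed. With the dimmest 25% of genes left out, 14 of the 71 members kept were rhythmic in KO (19.4% of the remaining genes) and 21 in WT (22.1%). A call in 1 genotype only does not show a difference. The rhythm itself differed between the genotypes for 1 gene, *Mrpl15* (limma F-test, 0.127% of all genes), and for 9 at an unadjusted p under 0.05 (8.46% of all genes). With median scaling 3 were rhythmic in KO and 10 in WT, 1 of them in both, where of all 16593 genes 1293 were rhythmic in KO and 2053 in WT. The order of the genotypes is not stable. With the 12 times as a factor, 9 were rhythmic in KO and 5 in WT, and without set WT10 the counts were 13 in KO and 9 in WT, where over the array, too, more genes were rhythmic in KO (1843 in KO and 1579 in WT with the times as a factor, and 2273 in KO and 1681 in WT without set WT10).

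The peaks of these rhythms gathered around the end of the night. Of the 13 genes rhythmic in KO, 12 had their fitted maximum (acrophase) between ZT18 and ZT4, compared with 43.0% of all genes rhythmic in KO, and of the 19 rhythmic in WT 14 had (73.7%, compared with 42.4%). The median acrophase of the 9 genes rhythmic in both was ZT 23.3 in KO and ZT 21.4 in WT. It was later in KO for 6 of the 9 (1080 of the 1564 genes rhythmic in both over the array), with a median delay of 1.48 h (0.582 h over the array) and a range from -0.22 to 3.63 h. The fitted amplitude, from the mean to the maximum, was lower in KO for 7 of the 9 (1137 of the 1564), with a median of 0.12 in KO and 0.14 in WT. The test of a difference in rhythm, which takes amplitude and phase together, was passed by none of the 9.

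**Figure D4:**
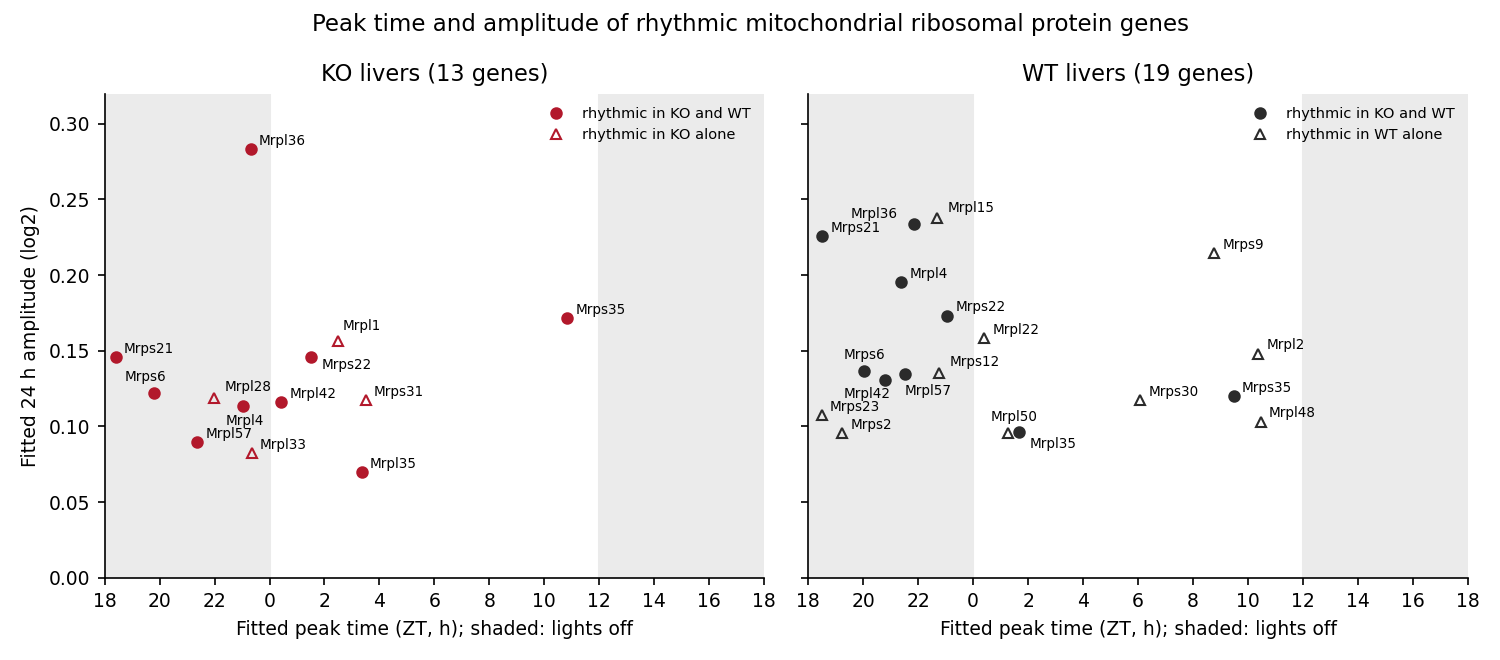
Fitted 24 h amplitude (y axis, log2) against fitted peak time (x axis, ZT in h, lights off shaded) of the mitochondrial ribosomal protein genes rhythmic in KO (left, 13 genes) and in WT (right, 19 genes). Filled circles are the 9 genes rhythmic in both, open triangles those rhythmic in 1 genotype alone. Most lie between ZT18 and ZT4.

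*Mrpl36*, the counterpart of a small bacterial protein of the large subunit, had the strongest rhythm of the 9. At ZT12 its values were 8.86, 8.90 and 8.97 in KO and 8.90, 9.03 and 9.11 in WT, and at ZT22 they were 9.62, 9.69 and 9.80 in KO and 9.53, 9.67 and 9.79 in WT. No value at ZT12 reached those at ZT22 in either genotype. The amplitude was 0.28 (SE 0.036, F-test adjusted p = 2.17e-06) in KO and 0.23 (SE 0.026, adjusted p = 2.08e-07) in WT, with acrophases at ZT 23.3 in KO and ZT 21.8 in WT and a delay of 1.48 h (SE 0.65 h). The rhythm held in both genotypes under all 18 alternatives. The test of the difference gave an unadjusted p of 0.048 and an adjusted p of 0.59. *Mrps22*, coding for a protein found in the mitochondrial particle alone, was lowest at ZT12 in both genotypes, with 7.96, 8.07 and 8.13 in KO against 7.79, 7.94 and 8.15 in WT. Its amplitude was 0.15 (SE 0.029) in KO and 0.17 (SE 0.034) in WT, and its acrophase ZT 1.5 in KO and ZT 23.0 in WT (delay 2.46 h, SE 1.06 h). The promoters of both are given with every match of the 8 motifs in capitals. That of *Mrpl36* (chr13:73330759-73331058, plus strand) holds the YY1 motif, on the opposite strand, from position -31, the E-box from -43, the ROR half-site from -39 on the opposite strand, which overlaps the E-box, and the CCAAT box from -247. That of *Mrps22* (chr9:98601630-98601929, minus strand) holds the ETS motif from position -11, the ROR half-site from -214 and from -185, and the SP1 box from -147.
Mrpl36: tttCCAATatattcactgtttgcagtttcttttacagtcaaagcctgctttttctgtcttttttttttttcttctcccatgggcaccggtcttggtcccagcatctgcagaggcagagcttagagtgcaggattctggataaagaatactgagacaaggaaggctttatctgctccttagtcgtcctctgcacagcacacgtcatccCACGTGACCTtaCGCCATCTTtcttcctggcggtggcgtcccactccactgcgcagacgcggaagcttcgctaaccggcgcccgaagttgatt
Mrps22: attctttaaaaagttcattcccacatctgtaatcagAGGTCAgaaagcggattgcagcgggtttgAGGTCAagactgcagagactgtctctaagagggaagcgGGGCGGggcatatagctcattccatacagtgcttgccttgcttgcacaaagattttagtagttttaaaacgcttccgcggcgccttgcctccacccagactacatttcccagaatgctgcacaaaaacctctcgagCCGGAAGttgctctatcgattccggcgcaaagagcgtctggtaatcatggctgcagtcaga

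The other 7 had smaller amplitudes in KO, WT or both. *Mrpl4*, whose bacterial counterpart lines the exit tunnel, had an amplitude of 0.11 (SE 0.023) in KO and 0.20 (SE 0.038) in WT, with acrophases at ZT 23.0 in KO and ZT 21.4 in WT. Its lowest value in WT, 6.80 at ZT12, is that of the array that stood apart, and the WT rhythm passed the test without it as well. *Mrps21* had 0.15 (SE 0.039) in KO and 0.23 (SE 0.034) in WT and peaked at ZT 18.4 in KO and ZT 18.5 in WT. For *Mrps6* and *Mrpl57*, too, the peaks lay close together, at ZT 19.8 in KO and ZT 20.03 in WT for *Mrps6* and at ZT 21.4 in KO and ZT 21.5 in WT for *Mrpl57*. *Mrpl42* peaked at ZT 0.42 in KO and ZT 20.8 in WT (delay 3.63 h, SE 1.47 h). *Mrpl35* peaked at ZT 3.4 in KO and ZT 1.7 in WT (delay 1.69 h, SE 1.36 h). Of the 9 genes, only *Mrpl36* passed the test in both genotypes whichever of the 6 sets was left out. In KO, the calls of *Mrpl42*, *Mrpl57* and *Mrps21* were lost without any 1 of the 3 KO sets, those of *Mrpl35* and *Mrps6* without KO4 or KO6, that of *Mrpl4* without KO5 and that of *Mrps35* without KO6. In WT, the call of *Mrps35* was lost without any 1 of the 3 WT sets, those of *Mrpl42* and *Mrps6* without WT6 or WT10, and those of *Mrpl35* and *Mrps22* without WT9. *Mrps35* was the only one of the 9 with its peak outside ZT18 to ZT4, at ZT 10.8 in KO with an amplitude of 0.17 (SE 0.033) and at ZT 9.5 in WT with 0.12 (SE 0.034).

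*Mrpl15*, a counterpart of a bacterial protein of the large subunit, had the clearest WT rhythm and the only one that differed. In KO its values were 6.33, 6.45 and 6.48 at ZT12 and 6.58, 6.63 and 6.66 at ZT22, and the highest were single livers with 6.94 at ZT4 and 6.96 at ZT6. In WT they were 6.23, 6.36 and 6.36 at ZT12 and 6.79, 6.87 and 6.91 at ZT22. At ZT22 every KO value was below every WT value, and at ZT12 the genotypes overlap. The amplitude was 0.086 (SE 0.028, adjusted p = 0.097) in KO and 0.24 (SE 0.022, adjusted p = 2.59e-09) in WT, with acrophases at ZT 0.68 in KO and ZT 22.7 in WT, and the limma F-test of the difference gave an adjusted p of 0.043. This call is close to the threshold. It was lost in 7 of 15 alternatives, among them the leaving out of any of 5 of the 6 sets, with adjusted p from 0.034 to 0.38. The mean level did not pass the test (difference 0.023, SE 0.038).

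**Figure D5:**
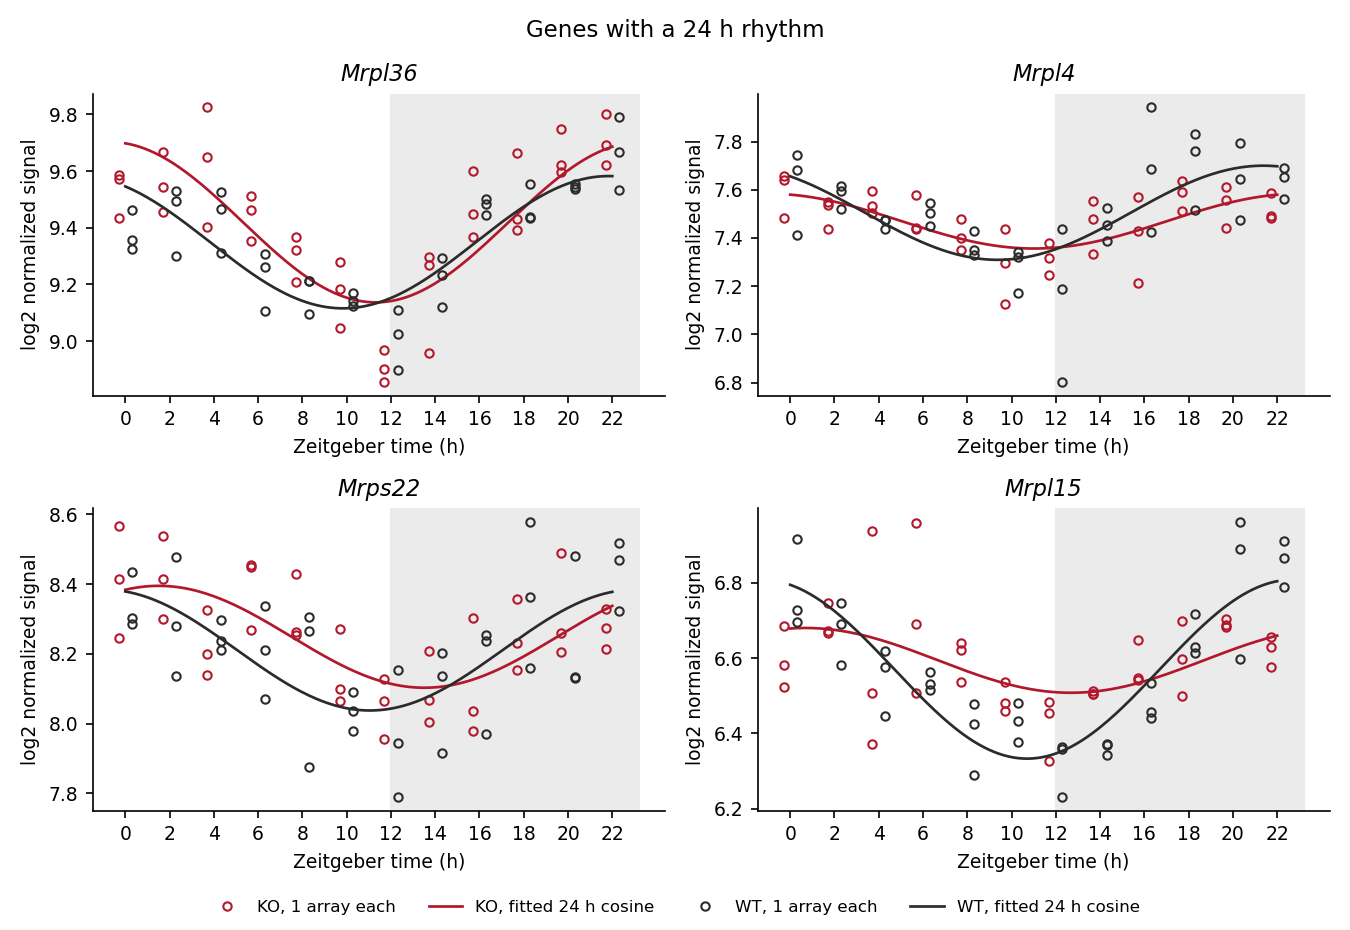
Log2 normalized signal (y axis) of *Mrpl36*, *Mrpl4*, *Mrps22* and *Mrpl15* against Zeitgeber time in h (x axis, lights off shaded), with 1 circle per liver and the fitted 24 h cosine as a line, KO in red and WT in black. The curves are lowest around ZT10 to ZT14, and that of *Mrpl15* is flatter in KO (amplitude 0.086) than in WT (0.24).

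Among the other genes past the rhythm test in WT alone, *Mrps9* had an amplitude of 0.076 (SE 0.031) in KO and 0.21 (SE 0.041) in WT and peaked by day in both (ZT 9.2 in KO and ZT 8.8 in WT). *Mrpl48* had 0.047 in KO and 0.10 in WT, *Mrps30* had 0.076 in KO and 0.12 in WT, and *Mrps23* had 0.025 in KO and 0.11 in WT. The 5 probes of *Mrpl48* disagree. On another bright probe it was also rhythmic in WT and not in KO (F-test adjusted p over all probes 0.015 in WT and 0.44 in KO). A further bright probe gave the reverse, with amplitudes of 0.12 in KO (adjusted p = 0.0023) and 0.061 in WT (adjusted p = 0.064). All 10 genes rhythmic in WT alone had the smaller fitted amplitude in KO, which their choice favours. Of these genes *Mrpl50* was close to the threshold in the other genotype, with an adjusted p of 0.051 in KO and 0.023 in WT. Without set WT10 the calls of *Mrps9*, *Mrpl48* and *Mrps23* were lost, that of *Mrps23* also without WT6, and that of *Mrps30* without WT9. In KO alone, *Mrpl1*, coding for the protein of the mobile L1 stalk, had 0.16 (SE 0.030, adjusted p = 8.15e-04) in KO and 0.11 (SE 0.037, adjusted p = 0.088) in WT. *Mrps31* had 0.12 in KO (adjusted p = 0.0034) and 0.057 in WT, and this was seen on 3 of its 4 probes, with adjusted p from 4.8e-05 to 0.0040 in KO and from 0.55 to 0.92 in WT. *Mrpl28* had 0.12 in KO and 0.076 in WT, and *Mrpl33* had 0.083 in KO and 0.086 in WT. On its other probe *Mrpl33* was rhythmic in WT and not in KO. These calls were lost without KO4 for *Mrpl1*, without KO4 or KO6 for *Mrps31*, without KO5 for *Mrpl28* and without any 1 of the KO sets for *Mrpl33*.

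A component with a period of 12 h, added to that of 24 h, passed the F-test for none of the 74 genes in KO and for none in WT, where 0.669% and 1.03% of all genes did, and for 5 in each at an unadjusted p under 0.05 (9.59% of all genes in KO and 9.96% in WT). The smallest p-values in KO were those of *Mrpl36* (amplitude 0.12, adjusted p = 0.11), *Mrpl53* (adjusted p = 0.21) and *Mrps27* (adjusted p = 0.46). In WT they were those of *Mrpl15* (amplitude 0.064, adjusted p = 0.24), *Mrps10* (adjusted p = 0.33) and *Mrpl4* (adjusted p = 0.40).

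Some of these genes start beside another gene. In RefSeq's annotation, 26 of the 65 genes with a promoter have a start of another gene on the opposite strand within 1000 bases upstream. The share over all genes was not counted, so that this is not shown to be particular to the family. For 20 of the 26 that neighbour was measured, which makes 19 pairs, since *Mrpl46* and *Mrps11* are neighbours of each other. The differences of the neighbours had the same sign in 9 of the 19 pairs. Of the 5 members past the level test with a measured neighbour (*Mrpl14*, *Mrpl40*, *Mrpl47*, *Mrpl50* and *Mrps7*), no neighbour passed it. Over all genes 5.93% were higher and 6.38% lower, so that few would be looked for among 5. *Mrpl14* was higher in KO by 0.14, and *Tmem63b*, 131 bases away, differed by -0.090 (limma adjusted p = 0.26). *Mrpl40* was higher by 0.12, and *Hira*, coding for a histone chaperone, differed by -0.050 (adjusted p = 0.052). *Mrpl50* was higher by 0.15, and *Zfp189* differed by -0.023 (adjusted p = 0.52). The only neighbour past the test was *Fau*, beside *Mrpl49*, which encodes a cytosolic ribosomal protein fused to a ubiquitin-like domain and was lower in KO by 0.18, while *Mrpl49* differed by 0.028 (adjusted p = 0.75). Of the 5 rhythmic members with a measured neighbour, the neighbour was rhythmic for 1, *Klc4* beside *Mrpl2* (20.1% of all genes were rhythmic in KO or WT). Rhythmic neighbours also lay beside members that were not rhythmic, *Tcp1* beside *Mrpl18*, *Psma2* beside *Mrpl32*, *Twnk* beside *Mrpl43* and *Gga3* beside *Mrps7*. *Mrpl2* peaked at ZT 10.4 in WT and *Klc4*, coding for a kinesin light chain, at ZT 17.6. *Mrps12*, which encodes a protein of the decoding centre, and *Sars2*, the mitochondrial seryl-tRNA synthetase, start 147 bases apart. *Mrps12* had a 24 h amplitude of 0.011 in KO and 0.14 in WT (adjusted p = 0.98 in KO and 0.021 in WT), and *Sars2* was not rhythmic in either genotype (adjusted p = 0.67 in KO and 0.40 in WT).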

How the data were processed

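Liver RNA of 36 KO and 36 WT mice was measured on Illumina BeadChips. The authors deposited the intensity of each probe as an average signal without normalization, and a table of normalized log2 values. Partek is named in the submitters' processing notes, without further steps. The signals were corrected with normexp (offset 50), quantile normalized and taken as log2 (limma 3.58.1, R 4.3.3). Of 25697 probes 23978 name 1 gene, and the brightest probe on average stood for its gene. Levels were compared with limma over all times without a term for time, and at single times in a model of 24 groups. For each genotype a cosine curve with a period of 24 h was tested by an F-test, and differences in rhythm by limma's F-test of the interaction. All p-values were adjusted (Benjamini-Hochberg) over all genes, with a threshold of 0.05. The scripts were tested on simulated data. Set names are those in the authors' column headers.

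The members and the lists of other genes were chosen with earlier results of these data known. Named are up to 10 members with the largest called differences in each direction, up to 10 rhythmic in both genotypes, up to 5 rhythmic in KO alone, in WT alone or with a differing rhythm, up to 3 with the smallest p of a 12 h component, those on chromosome 4 within 20 Mb of *Scp2*, those whose probes disagree, and up to 3 genes of each other list. Paralogs, neighbouring genes and a few further members were named after their values were seen. Promoters and chromosomes come from RefSeq (GRCm38.p6), and no coordinates were taken from the deposited files. Alternatives were the authors' values, no background correction, median scaling, a filter on dim genes (12444 kept), the mean of all probes, thresholds of 0.01 and 0.1, time as a factor, sets as a random block, a moderated F-test, means per time, and leaving out each set or the array that stood apart. Some items are not reported here.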

Additional observations from a re-analysis of the deposited data

Results flagged for a closer look

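The 24 h rhythm of *Mrpl15* differed between the genotypes, with an amplitude of 0.086 in KO and 0.24 in WT and an adjusted p of 0.043 (limma F-test of the interaction with genotype, n = 36 arrays each). It is given here because this test of the difference passed the threshold, as it did for no other of the 74 genes. The cause was not tested.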

How the results depend on the processing

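The median difference of the 74 genes lay between 0.016 and 0.033 under the 17 alternatives run for it. With median scaling in place of quantile normalization, 3 members were higher in KO and 0 lower (15 and 2 with quantile normalization), and 0 passed at a single ZT. Then 3 were rhythmic in KO and 10 in WT, and 0 rhythms differed. Of all 16593 genes 611 were higher, 829 lower, 1293 rhythmic in KO and 2053 in WT with this scaling. Of the 69 other genes of mitochondrial translation 10 were higher. For the 1 member then rhythmic in both genotypes the WT acrophase was ZT 22.72 and the delay 0.573 h. The cause was not tested. With a threshold of 0.01, 7 members were rhythmic in KO and 11 in WT, 1 passed at a single ZT and 0 rhythms differed, and with a threshold of 0.1 the median KO acrophase was ZT 0.56. With the means of 3 arrays at each ZT, 2 were rhythmic in KO, and with the 12 times as a factor 5 were rhythmic in WT, fewer than the 9 in KO. In the level test with time as a factor, 17 members were higher and 2 lower, where 1222 of all genes were higher and 1332 lower. Taking the mean of all probes of a gene gave 15 members higher and 3 lower, and reversed *Mrps26* (-0.0458, limma adjusted p = 0.24). Leaving out 1 set of 12 arrays at a time gave 10 to 17 members higher in KO, with the fewest without set KO6, 0 to 2 lower, and 0 to 8 passing at a single ZT. It gave 6 to 13 rhythmic in KO, with 6 without set KO4 and 8 without KO5 or KO6, 9 to 19 rhythmic in WT, with 9 without set WT10, and 0 to 1 whose rhythm differed. The median acrophase in KO ran from ZT 21.37 over ZT 23.33 and ZT 1.04 to ZT 1.66, and that in WT from ZT 20.56 to ZT 23.05.

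Replicate numbers are shared by the groups, and only the authors' normalized values carry them. Deviations of arrays with 1 number correlated above 0.1 in 22 of 36 comparisons (from -0.114 to 0.340) and not in all, so that the numbers were not taken as pairs. As a hint from the data that a number may mark something shared, 24 of 36 correlated best with their own number. How many would do so with nothing shared was not worked out, and the main tests take no account of the numbers. With the replicate block on the authors' values, 15 members were higher and 2 lower in KO, 12 were rhythmic in KO and 23 in WT. Without the block, 13 were rhythmic in KO and 19 in WT on the authors' values. The precision is limited by the 3 arrays per group and, for the dimmest genes, by signals near background.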
